A study of Mus musculus with 38 samples.

Results

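The testes of LuRKO mice, which lack the receptor for luteinizing hormone, were compared with testes of wild-type littermates at postnatal day 27, with birth counted as day 1. The LuRKO group was 1 array and the wild-type group 2 arrays, A and B, out of 38 arrays in the series. The RNA of 2 animals was pooled for each array, and no animal of either group was injected. The members were all genes with a symbol that had a probe above background on at least 2 of the 38 arrays, 15131 in all. The other arrays used here were LuRKO and wild-type testes of days 3, 8, 13 and 19, and LuRKO testes injected once at day 19. Of the injected groups, one was taken 48 h after 2.5 mg of testosterone propionate and one 24 h after vehicle, with 2 arrays each. RNA was whole-testis RNA, so a change in the number of cells of a type and a change in RNA per cell cannot be told apart.

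Luteinizing hormone from the pituitary acts on Leydig cells, which lie between the seminiferous tubules and make testosterone and Insl3. Testosterone acts on Sertoli cells, the supporting cells of the tubule, and on the peritubular cells around it. In the first wave of spermatogenesis after birth, spermatogonia enter meiosis, spermatocytes divide into round spermatids, and these elongate while protamines replace the histones of their chromatin. Mice without the receptor are known for small testes, few adult Leydig cells and a block in spermatid development.

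The single-channel bead arrays were read as log2 intensities after background correction, and a difference is the LuRKO value minus the mean of the wild-type values. A gene was called when its limma p-value, adjusted by Benjamini and Hochberg over all 15131 genes, was under 0.05. The spread came from all 20 groups of the series, since the LuRKO group had 1 array, which was assumed to vary like the others. An effect of genotype and a peculiarity of that array cannot be told apart, and p-values measure only the spread between arrays. Array medians were nearly equal (108.1 to 108.3 on the linear scale) because the deposited values had been made alike between arrays, so they say nothing of array quality. With arrays made alike, a gene with more RNA and a gene whose share rose because other RNA was missing cannot be told apart. Wild-type arrays A and B correlated at 0.994 over genes and differed by more than 1 on the log2 scale in 7 genes. The LuRKO array correlated at 0.881 with each of them. Outside day 27, 3 arrays stood apart: wild-type day 3 A, LuRKO day 13 B and vehicle A. Vehicle A had Insl3 at 12.34 and Rhox5 at 10.92, where vehicle B had 9.23 and 8.15. With these 3 arrays left out, a choice made after the data were seen, 5343 genes were called higher and 3230 lower at day 27.

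With all arrays, 5185 genes were higher in the LuRKO testis (34.3% of those tested) and 3160 were lower (20.9%), so that 55.2% differed in either direction. The changes were unequal in size. Among called genes, 1662 were at least 2-fold higher and 1568 at least 2-fold lower, but only 57 were at least 4-fold higher, against 700 at least 4-fold lower. No gene was 8-fold higher, while 401 were at least 8-fold, 185 at least 16-fold and 39 at least 32-fold lower. The lowest difference was that of Cabs1, a calcium-binding gene of elongating spermatids, at -6.09 (SE 0.22). The highest was that of Wnt5a, a secreted Wnt ligand, at 2.88 (SE 0.27). The median over all genes was 0.14, and 1238 genes were above background in wild type alone, against 687 in the LuRKO testis alone. For these counts any probe of the gene on any array of the group sufficed. Wild type had 2 arrays and LuRKO 1, so the counts are not on equal terms.

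**Figure D1:**
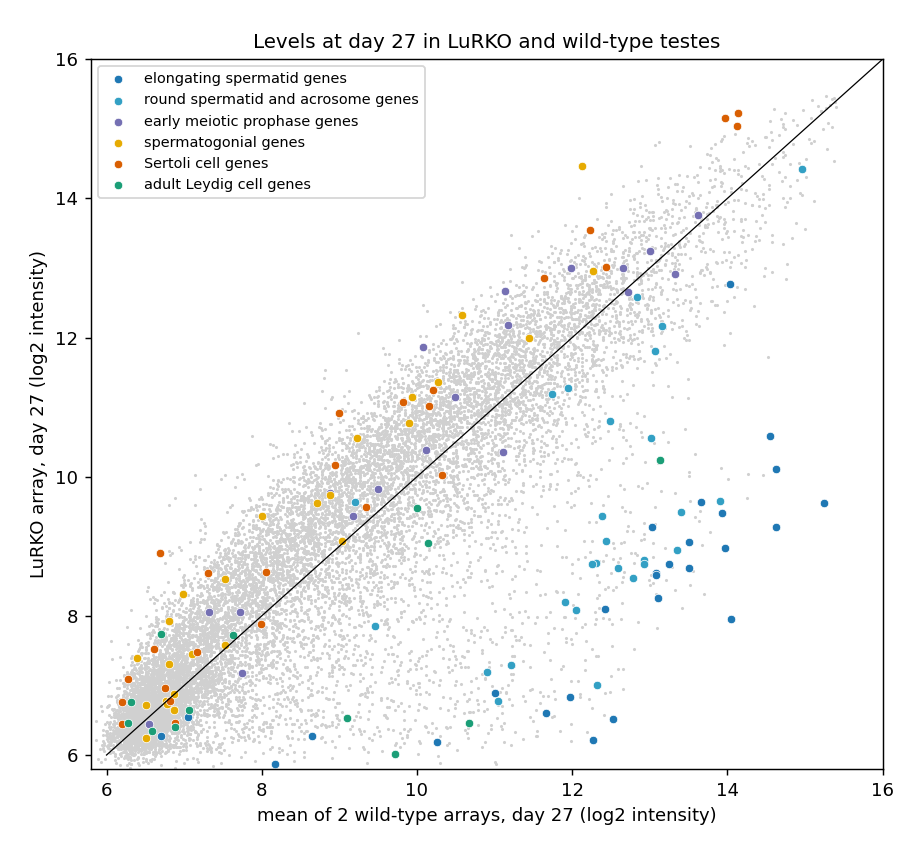
Each point is a gene, with its log2 intensity on the LuRKO array of day 27 (vertical axis) against the mean of the 2 wild-type arrays (horizontal axis), and the line marks equal levels. Most elongating (blue) and round spermatid genes (light blue) lie far below the line, while Sertoli cell (orange) and spermatogonial genes (yellow) lie mostly on or above it.

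Promoters of 4 spermatid or spermatocyte genes are shown first, because their genes were lower in the LuRKO testis, Pgk2 by less than the others, and the promoters hold or lack variants of the cAMP response element. In mouse testis this element is known to be bound by CREM, an activator of spermatid genes. Each stretch runs from 250 bases before the annotated start to 50 after it, 5′ to 3′ on the minus strand of GRCm38.p6, from RefSeq. They are Prm1 (chr16:10796774-10797073), Tnp1 (chr1:73015850-73016149), Pgk2 (chr17:40208560-40208859) and Tnp2 (chr16:10788606-10788905), and capitals mark matches to TGANNTCA.
Prm1: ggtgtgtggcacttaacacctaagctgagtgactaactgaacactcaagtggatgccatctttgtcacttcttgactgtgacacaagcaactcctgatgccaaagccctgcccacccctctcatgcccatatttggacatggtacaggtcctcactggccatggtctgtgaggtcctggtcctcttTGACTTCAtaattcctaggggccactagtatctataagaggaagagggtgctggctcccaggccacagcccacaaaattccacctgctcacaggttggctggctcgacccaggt
Tnp1: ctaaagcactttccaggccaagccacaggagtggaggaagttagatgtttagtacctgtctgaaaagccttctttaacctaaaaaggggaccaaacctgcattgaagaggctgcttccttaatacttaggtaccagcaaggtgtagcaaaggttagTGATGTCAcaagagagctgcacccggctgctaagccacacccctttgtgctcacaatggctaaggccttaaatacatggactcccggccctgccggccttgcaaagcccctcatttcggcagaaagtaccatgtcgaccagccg
Pgk2: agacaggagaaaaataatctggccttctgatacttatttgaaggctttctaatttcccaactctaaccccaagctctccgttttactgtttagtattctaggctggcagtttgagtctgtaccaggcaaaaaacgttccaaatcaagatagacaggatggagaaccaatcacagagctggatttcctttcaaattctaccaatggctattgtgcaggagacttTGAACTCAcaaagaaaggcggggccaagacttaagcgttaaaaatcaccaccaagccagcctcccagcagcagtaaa
Tnp2: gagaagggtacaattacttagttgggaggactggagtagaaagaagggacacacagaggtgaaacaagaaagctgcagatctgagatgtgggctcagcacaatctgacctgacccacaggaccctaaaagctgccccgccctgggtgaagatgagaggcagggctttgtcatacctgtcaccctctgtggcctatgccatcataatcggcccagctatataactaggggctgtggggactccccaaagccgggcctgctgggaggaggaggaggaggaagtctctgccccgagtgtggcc
The match began at position -64 from the start in Prm1, -94 in Tnp1 and -27 in Pgk2, and Tnp2 had none. The promoter of Prm2, not printed, had no match to any motif searched. The full element TGACGTCA and its part TGACG, searched first on both strands, were in none of these 4. TGANNTCA was written after these promoters had been read, so it was fitted to members of the lists it is counted in. It contains every TGACGTCA. It was in 13 of 23 elongating spermatid genes (56.5%), 12 of 24 round spermatid genes and 189 of 571 strongly lowered genes, those down at least 4-fold (33.1%). Of the 12111 tested genes with a promoter 13.1% held it, and of all 27025 genes 15.9%. For TGACGTCA the shares were 4.35%, 4.17%, 2.28%, 3.10% and 2.03% in the same order. For TGACG they were 21.7%, 37.5%, 18.4%, 31.2% and 23.0%. The palindromic androgen response element, also searched on both strands, was in 1 of the 12111 tested genes and in none of the 3 lists. These are letters in a window, and binding was not measured.

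Genes of elongating spermatids, which package sperm DNA and build the tail, were lower in the LuRKO testis without exception among those tested. All 27 tested of 33 listed were called lower, against 20.9% of all genes, with a median difference of -4.46, where the median of all genes was 0.14. Without wild-type array A, 25 of the 27 were called. At day 27, 8 of the 27 were above background in wild type alone, and a gene that passes the filter only through its high group is bound to differ. Prm1, a protamine, had 9.62 in the LuRKO testis, against 15.27 and 15.22 in wild-type testes. The LuRKO array thus lay far below a wild-type pair that differed by little, and the difference was -5.62 (SE 0.21, limma adjusted p = 2.8e-19). The wild-type values were close to the highest of any gene on those arrays, 15.43 and 15.51, so the 49.3-fold decrease is best read as a lower bound. Its other probes had a median of -5.61.

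Tnp1, a transition protein that replaces histones before the protamines, had 9.27 in the LuRKO testis, against 14.66 and 14.60 in wild type (difference -5.37, SE 0.25, limma adjusted p = 4.0e-17). Tnp2, the other transition protein, had 6.61 against 11.80 and 11.53. It was not above background in the LuRKO testis, where it was at least 32.9-fold lower. Prm1 and Tnp1, by contrast, were above background in the LuRKO testis, though Prm1 was so in LuRKO testes already at day 3. Cabs1 had 7.95 in the LuRKO testis, against 13.92 and 14.17 in wild type, a 68.2-fold difference. Oxct2a and Oxct2b, germ cell forms of the ketone body enzyme, were at least 59.4-fold and at least 49.7-fold lower. They are close copies whose probes could share signal. Car4, a carbonic anhydrase, was nearest to 0 in the list, at -0.42 (SE 0.16).

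Several of the 10 largest decreases lay outside the lists. Cstl1, a cystatin-like gene, had 6.33 in the LuRKO testis, against 12.16 and 12.22 in wild type, and was at least 47.2-fold lower. The RIKEN genes of the 10 followed the same pattern, with differences of -5.84 for 1700042G07Rik, -5.70 for 1700034E13Rik and -5.58 for 4930544D05Rik. Spertl had -5.60 (SE 0.20). Xaf1, an apoptosis-related gene, had 6.20 in the LuRKO testis, against 11.96 and 12.02 in wild type, on the probe used. With no filter on dim probes another Xaf1 probe stood for the gene and gave -0.16, which was not called, so its decrease rests on 1 probe.

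Genes of round spermatids and the acrosome, the enzyme-filled cap of the sperm head, were lower in 23 of 27 tested cases, of 30 listed. That is 85.2%, against 20.9% of all genes. None was higher, and the median was -3.56. Acrv1, an acrosomal protein, had 9.49 in the LuRKO testis, against 13.38 and 13.43 in wild type (difference -3.92, SE 0.29, limma adjusted p = 1.7e-12). Tssk6, a spermatid kinase, had 7.01 against 12.47 and 12.18 and was the lowest of the list at -5.32 (SE 0.20). Capza3, of the actin-capping complex, and Actl7a, an actin-like protein of the sperm head, were 21.2-fold and 19.1-fold lower. Zpbp2, an acrosomal zona-binding protein, had 12.58 in the LuRKO testis, against 12.95 and 12.73 in wild type, and was not called (-0.27, SE 0.27). The list therefore held both genes near the background and genes close to the wild-type level.

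Sperm tail motor and ion channel genes were lower in 20 of 26 tested cases, none higher, with a smaller median of -1.14. The lower share was 76.9%, against 20.9% of all genes. The genes of the CatSper calcium channel of the sperm tail differed among themselves. Catsper3 had 7.83 in the LuRKO testis, against 11.69 and 11.86 in wild type (-3.94, SE 0.21), Catsper1 differed by -3.83 (SE 0.23) and Catsper4 by -3.63 (SE 0.20). Of 7 CatSper genes tested 5 were lower and none higher. Catsper2, named here after its value was seen, had 12.88 in the LuRKO testis, against 13.45 and 13.63 in wild type (-0.66, SE 0.21), and was not called without wild-type array B (-0.57). Catsperg1 was near the background on all 3 arrays.

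Regulators of haploid transcription and translation were mostly lower. Of 19 tested, 11 were lower and 3 higher (median -1.10). These were 57.9% and 15.8%, against 20.9% and 34.3% of all genes. When probes were averaged per gene, 15 were lower and 2 higher. Cdyl, among the 3 higher on the probe used (0.61, SE 0.17), had other probes at a median of -3.85. Fhl5, a testis coactivator of CREM, was 31.0-fold lower, at 8.37 in the LuRKO testis, against 13.18 and 13.47 in wild type. Spz1, a spermatogenic transcription factor, differed by -3.75 (SE 0.22). Crem itself had 10.66 in the LuRKO testis, against 12.40 and 12.52 in wild type (-1.79, SE 0.16), though its other probes had a median of -0.02. Taf7l, a germ cell subunit of the general transcription machinery, was higher at 13.53, against 11.65 and 11.46 in wild type (1.98, SE 0.22). Cpeb2, a translational regulator, had -2.77 on the probe used, and another probe was called higher.

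Lists of earlier germ cells had smaller medians. Of 17 pachytene and meiotic division genes 8 were lower (47.1%) and 4 higher (23.5%), with a median of -0.05. Beside the 20.9% lower and 34.3% higher of all genes, the calls leaned lower. When probes were averaged per gene, 6 were lower and 3 higher. Calr3, a testis calreticulin, was the lowest, at 7.52 in the LuRKO testis, against 12.28 and 12.21 in wild type (-4.73, SE 0.20). Its other probes had a median of -3.88, though among them was a probe called higher. Pgk2, the germ cell phosphoglycerate kinase, had 12.36 in the LuRKO testis, against 14.04 and 13.87 in wild type (-1.60, SE 0.33). Ldhc, the germ cell lactate dehydrogenase, had 15.30, against 15.25 and 15.28, near the top of the scale on all 3 arrays.

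Of 19 early meiotic prophase genes, 7 were higher and 2 lower, close to the 34.3% and below the 20.9% of all genes (median 0.33). Sycp1, of the synaptonemal complex that pairs chromosomes, had 12.18 in the LuRKO testis, against 11.36 and 10.98 in wild type (1.01, SE 0.21). Tex11, an X-linked meiotic gene, had 11.87 against 9.93 and 10.23 (1.79, SE 0.19). Smc1b, a meiotic cohesin, differed by -0.06 (SE 0.14). The piRNA pathway, which silences transposons in germ cells, had 7 higher and 5 lower of 18 (38.9% and 27.8%), near the shares of all genes. Piwil2 differed by 1.09 (SE 0.18), and Piwil1, the PIWI protein of later spermatocytes, by -0.05 (SE 0.20).

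Among 25 spermatogonial genes 16 were higher (64%) and none lower (median 0.86), against 34.3% and 20.9% of all genes. When probes were averaged per gene, 12 of 25 were higher (median 0.48). Dazl, a germ cell RNA-binding protein, had 14.46 in the LuRKO testis, against 12.17 and 12.08 in wild type (2.33, SE 0.19, limma adjusted p = 3.5e-11). Rhox13, an X-linked homeobox gene, had 12.33 against 10.47 and 10.70. Stra8, induced by retinoic acid before meiosis, differed by 1.32 (SE 0.33), and Kit, the receptor of differentiating spermatogonia, by 1.22 (SE 0.25), though other Kit probes had -0.22. Genes linked to undifferentiated spermatogonia were mixed. Foxo1, a transcription factor, differed by 1.43 (SE 0.17), Lin28a, an RNA-binding protein, by 1.01 (SE 0.26) and Sall4, a zinc finger factor, by 0.91 (SE 0.28), which was not called without wild-type array A (0.76). The other probes of Lin28a had a median of 0.21. Zbtb16 had 0.35 (SE 0.29) and Nanos2 0.01 (SE 0.16), and neither was called. Gfra1 (-0.24), Etv5 (0.05), Bcl6b (-0.05) and Nanos3 (0.20), also linked to these cells, were not called either. Ret (1.12), Lhx1 (1.01) and Id4 (0.56) were called higher, though other probes of Lhx1 and Id4 had -0.42 and -0.33.

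**Figure D2:**
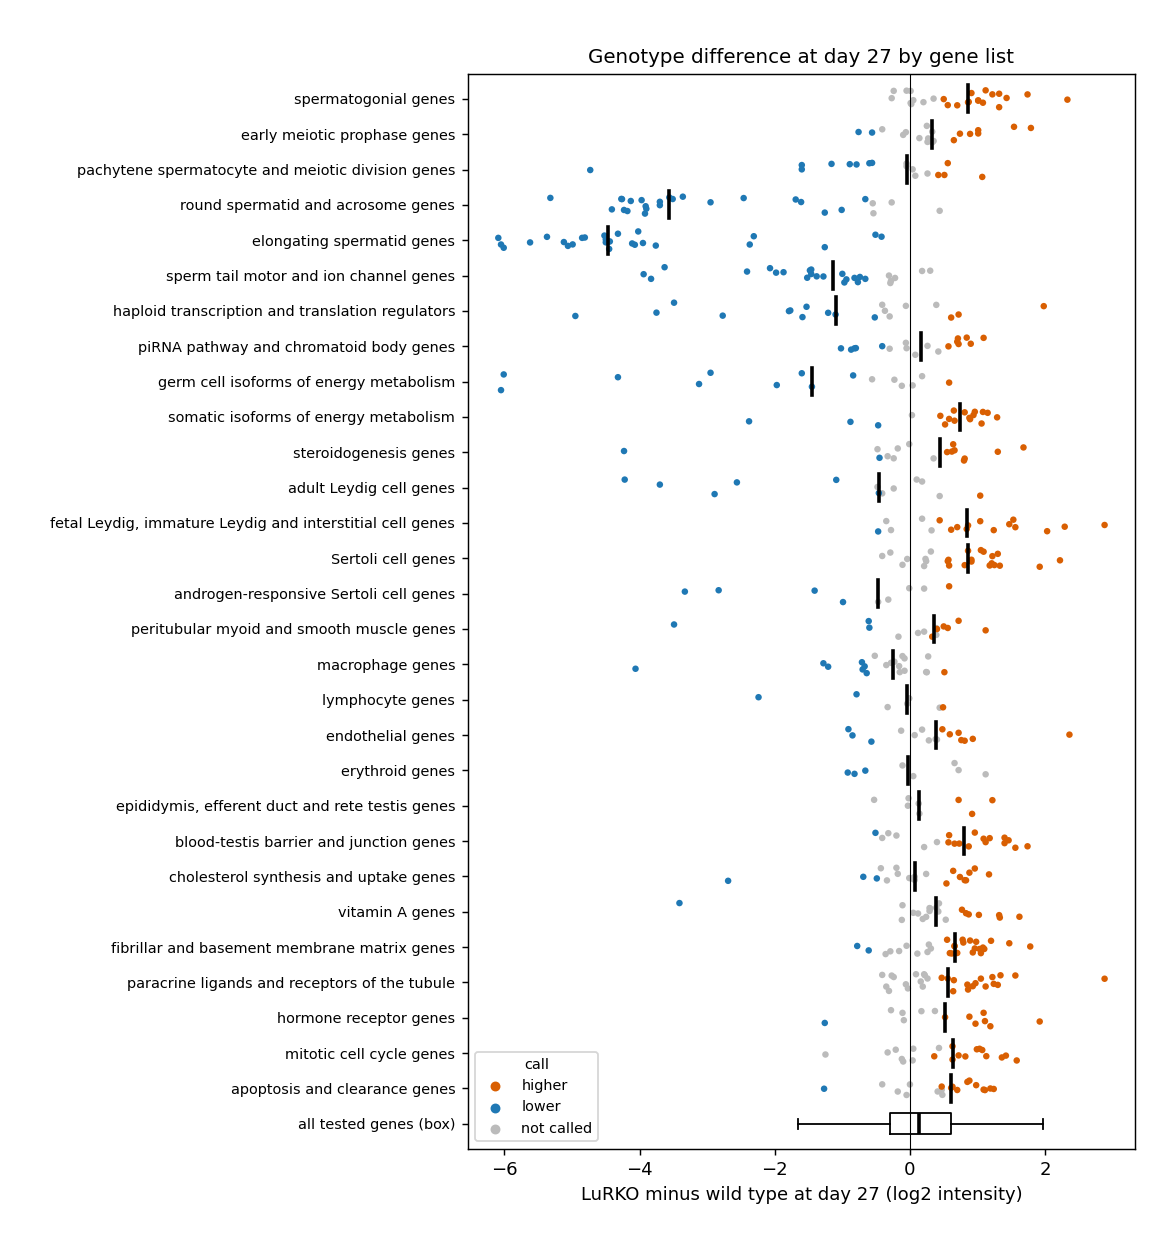
Each point is a tested gene of a list, placed by its difference at day 27 (LuRKO minus wild type, log2), with the call in colour and the list's median as a black bar. The elongating spermatid list has its median at -4.46 and the Sertoli and spermatogonial lists at 0.86, and the box of all tested genes spans the quartiles -0.30 to 0.61.

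Of 13 adult Leydig cell genes 6 were lower (46.2%) and 1 higher (7.69%), against 20.9% and 34.3% of all genes. The median of -0.46 takes in members near or below the threshold of 6.63 in wild type too, which could hardly show a fall. Such were Hsd3b6 (6.79 and 6.98), Hsd17b3 (6.67 and 6.49), Bmp6 (6.24 and 6.31) and Cyp2e1 (6.35 and 6.28). Insl3, the Leydig cell hormone of testicular descent, had 10.24 against 13.24 and 13.01 (-2.89, SE 0.57) and remained above background in the LuRKO testis. The kallikreins Klk1b21, Klk1b27 and Klk1b24, were not above background in the LuRKO testis and at least 16.5-fold, 8.50-fold and 5.52-fold lower. They belong to a family of near-identical genes whose probes could share signal.

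Of 16 steroidogenesis genes 8 were higher and 2 lower (median 0.45), beside 34.3% and 20.9% of all genes. When probes were averaged per gene, 7 were higher and 1 lower, with a median of 0.13. The lowest member was Cyp17a1, which makes androgen precursors. It had 8.12 in the LuRKO testis, against 12.35 and 12.35 in wild type (-4.23, SE 0.63, limma adjusted p = 1.9e-06). Hsd3b1, a dehydrogenase of steroid synthesis, had 8.00 in the LuRKO testis, against 7.09 and 7.31 in wild type (0.80, SE 0.22). Star, the cholesterol carrier, had 6.94, against 6.88 and 7.02, close to the threshold of 6.63 in every testis. Hsd17b3, which makes testosterone, was also near it and was not called (-0.24, SE 0.19). Cyp11a1, the first enzyme, had 1.68 (SE 0.21) on the probe used, but its other probes had a median of -0.70 with 1 called lower. Averaged over probes it had 0.09, so the call and direction rest on the choice of probe.

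Genes of fetal Leydig, immature Leydig and other interstitial cells numbered 13 higher and 1 lower of 18 (median 0.85). These were 72.2% and 5.56%, against 34.3% and 20.9% of all genes. Wnt5a had 10.02 in the LuRKO testis, against 7.22 and 7.06 in wild type (2.88, SE 0.27, limma adjusted p = 2.5e-10), and its other probes had a median of 1.17. Dlk1, a Notch-like protein of immature Leydig cells, had 11.85 against 9.62 and 9.51 (2.29, SE 0.22). Igfbp3, an insulin-like growth factor binding protein, was 4.09-fold higher. Dcn, the matrix proteoglycan decorin, differed by 1.53 (SE 0.14).

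Among 25 Sertoli cell genes 17 were higher (68%) and none lower (median 0.86), against 34.3% and 20.9% of all genes. Among genes above background on both wild-type arrays at day 3 the higher share was 42.9%. Here, as in the other lists with mostly higher genes, more RNA and a larger share of the RNA cannot be told apart. Fshr, the receptor of follicle-stimulating hormone, had 10.92 in the LuRKO testis, against 8.88 and 9.11 in wild type (1.92, SE 0.17, limma adjusted p = 6.7e-11). Ctsl, a protease secreted into the tubule, was 4.67-fold higher, and Gdnf, the growth factor of spermatogonial stem cells, 2.46-fold. Sox9, the Sertoli cell transcription factor, had 12.85 against 11.63 and 11.65. Amh, the hormone of immature Sertoli cells, had 7.52 against 6.82 and 6.40 (0.91, SE 0.20). Gata4 was at 6.78, against 6.83 and 6.81, near the background on all 3 arrays.

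Androgen-responsive Sertoli cell genes, counted apart, had 4 of 9 lower and 1 higher (median -0.47). These were 44.4% and 11.1%, against 20.9% and 34.3% of all genes. Rhox5, a homeobox gene of Sertoli cells, had 7.63 in the LuRKO testis, against 10.73 and 11.18 in wild type (-3.33, SE 0.57, limma adjusted p = 1.4e-05). Drd4, a dopamine receptor, was also low in the LuRKO testis alone (-2.83, SE 0.49). Defb45, a beta-defensin, differed by -1.41 (SE 0.33). Eppin, a protease inhibitor, was not called (-0.47, SE 0.22, limma adjusted p = 0.068). It was called under 3 alternatives, with -0.76 when its probes were averaged. Serpina5, another protease inhibitor, was the member that was higher (0.58, SE 0.21), and it was not called without wild-type array A or when its probes were averaged.

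In the lists of structure, signalling and cell turnover the higher share was above the 34.3% of all genes, and no list was tested. Among genes above background on both wild-type arrays at day 3 the higher share was itself 42.9%. Blood-testis barrier and junction genes numbered 14 higher and 1 lower of 20 (median 0.80), led by F11r, a junctional adhesion molecule (1.74, SE 0.15), and Gja1, the gap junction protein connexin (1.56, SE 0.14). Of 29 matrix genes 19 were higher and 2 lower (median 0.66), among them Col3a1, a fibrillar collagen, at 12.98 in the LuRKO testis, against 11.26 and 11.14 in wild type. Of 29 paracrine ligands and receptors 16 were higher and none lower. Of 13 hormone receptors 7 were higher and 1 lower (5 higher, or 38.5%, when probes were averaged). Of 20 mitotic cell cycle genes 12 were higher, such as Mcm2, of the replication helicase (1.58, SE 0.18), and none was called lower. Plk1 had the lowest difference, -1.25, and was not called. When probes were averaged per gene, 12 were higher and 2 lower. Of 19 apoptosis and clearance genes 11 were higher and 1 was lower, Bcl2l1, which inhibits apoptosis (-1.27, SE 0.24).

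Germ cell and somatic forms of energy enzymes had medians of opposite sign. The lists overlap: of the lower germ cell forms, Gapdhs, Oxct2a, Oxct2b and Pgk2 were also counted among the elongating spermatid or pachytene genes. Of 15 germ cell forms 9 were lower (60%) and 1 was higher (6.67%), with a median of -1.45. Gapdhs, the sperm glyceraldehyde phosphate dehydrogenase, had 8.10 in the LuRKO testis, against 12.59 and 12.26 in wild type (-4.32, SE 0.22). Of 18 forms used by somatic cells 14 were higher (77.8%) and 3 lower (16.7%), with a median of 0.74. The shares of all genes were 34.3% higher and 20.9% lower. Pdha1, the X-linked subunit of pyruvate dehydrogenase, had 9.69 against 8.42 and 8.39 (1.29, SE 0.16). Fabp3, a fatty acid binding protein, was the lowest of them at -2.38 (SE 0.23). Of the germ cell list, Hk1, hexokinase, had -2.95 on the probe used, while its other probes had a median of 0.26.

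Of 20 cholesterol synthesis and uptake genes 8 were higher and 3 lower (median 0.07), which is near the 34.3% and 20.9% of all genes. Cyp51, which makes a meiosis-activating sterol in germ cells, had 8.57 in the LuRKO testis, against 11.34 and 11.18 in wild type (-2.69, SE 0.22). Of 21 vitamin A genes 7 were higher (33.3%, about the share of all genes) and 1 was lower, Rxra, a retinoid receptor, at 6.69 against 9.96 and 10.23. Rbp4, the retinol carrier, differed by 1.62 (SE 0.15). Each of the 2 lists thus had 1 gene far from its other members.

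Markers of other cells were read beside these groups, and their part in the differences was not tested. Of all tested genes 34.3% were higher and 20.9% lower, the shares to set beside the counts below. Of 20 macrophage genes 7 were lower (35%) and 1 was higher (median -0.25). Their intensities summed to 12.58 on the log2 scale in the LuRKO testis, against 13.42 and 13.46 in wild type. Without Aif1 the sums were 12.53, against 12.81 and 12.88. C1qb, a complement subunit, differed by -1.28 (SE 0.17), while Csf1r, the macrophage growth factor receptor, differed by -0.11 (SE 0.20) and was not called. Aif1, a macrophage protein also made by spermatids, stood apart at 7.81 in the LuRKO testis, against 11.89 and 11.85 in wild type. Peritubular myoid genes (6 higher, 3 lower of 14, or 42.9% and 21.4%) summed to 14.80, against 14.73 and 14.75. Actg2, a smooth muscle actin, was far below its list at -3.49 (SE 0.25). Endothelial genes (7 higher, 3 lower of 16, or 43.8% and 18.8%) summed to 12.61, against 12.04 and 12.06. Of lymphocyte genes 1 was higher and 2 lower of 7 (sums 9.66, against 10.56 and 10.54), with Cd3d at -2.24. Without Cd3d the sums were 9.31, against 9.43 and 9.35. The median levels of this list, 6.68 in the LuRKO testis and 6.79 and 6.77 in wild type, were close to the threshold of 6.63. Of erythroid genes 3 of 8 were lower (37.5%) and none higher, yet the sum was higher in the LuRKO testis (13.97, against 13.54 and 13.52). The member with the highest difference, Hbb-b2 at 1.12, was not called. Of epididymis and rete testis genes 3 of 8 were higher (37.5%, near the share of all genes), led by Wfdc10 at 1.22 (SE 0.22). Their sums were 12.82, against 11.82 and 11.77.

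Among the 10 largest increases were 2 genes on the X chromosome, Hs6st2, a heparan sulfate enzyme, at 2.82 (SE 0.16), and Xlr4c at 2.51 (SE 0.20). Stc1, a secreted glycoprotein, had 9.60 in the LuRKO testis, against 6.81 and 6.78 in wild type. Slc40a1, the iron exporter ferroportin, had 11.42 against 8.79 and 8.80, and Dkk3, a secreted protein of the Dickkopf family, 9.97 against 7.42 and 7.53. Chp2 and Ces2g were 6.63-fold and 6.13-fold higher. Zfp395 had 7.30 and 6.47 on the wild-type arrays, the widest pair of the 10. Kcnab1, a potassium channel subunit, had 2.71 with an SE of 1.09 and was not called without either wild-type array.

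The difference varied with the age at which a gene first appears in the wild-type testis. Genes above background on both wild-type arrays at day 3, 11656 in number, had a median difference of 0.29 at day 27, with 42.9% higher and 15.8% lower. Genes first above background at day 8 had a median of -0.06, at day 13 of -0.34 and at day 19 of -1.15. Of the 660 genes first seen at day 19, 70.5% were lower and 1.82% higher. Genes not yet above background on both arrays at day 19, 1841 in number, had a median of -0.13 with 27.5% lower. Of these, 541 were above background on both wild-type arrays of day 27, with a median of -1.23 and 200 genes at least 4-fold lower, and the other 1300 had a median of -0.01. The first of these sets was chosen by its wild-type level at day 27, so its decrease is a description. The wild-type arrays of day 27 did not set the age of a gene, but they counted in the filter that admitted genes, so some genes may be present only through the group where they are high.

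**Figure D3:**
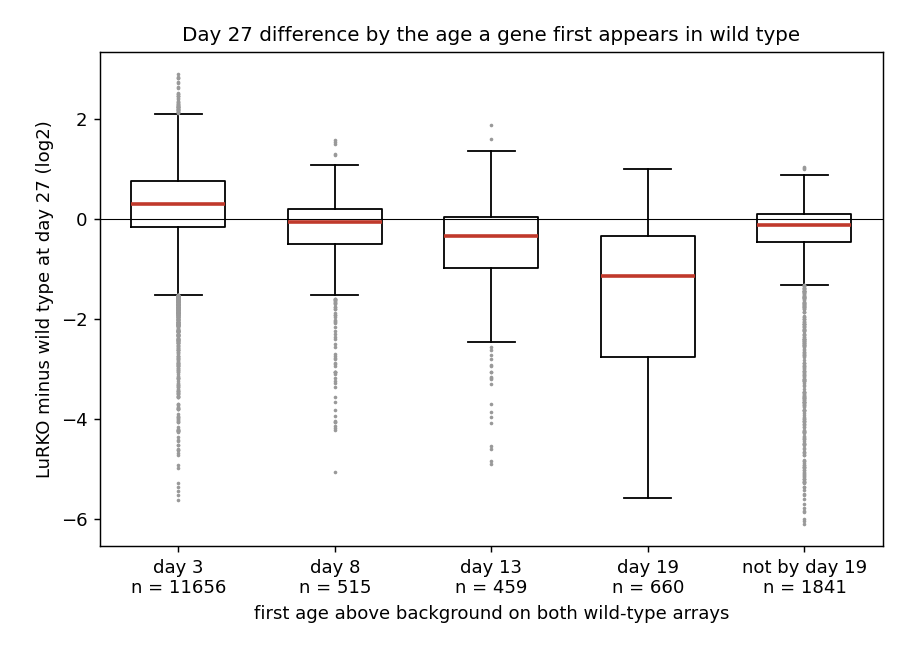
Boxes show the difference at day 27 (LuRKO minus wild type, log2) for genes grouped by the first age at which both wild-type arrays were above background, with the median in red, quartiles as the box and whiskers to 1.5 times the quartile range. The medians run from 0.29 for day 3 to -1.15 for day 19.

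Levels over age placed the day 27 difference in the course of development. The genotype difference was itself tested between ages, as the difference at day 27 minus that at day 19. By this test 3285 genes were higher (21.7%) and 1999 lower (13.2%). Of the elongating spermatid list 24 of 27 were lower in this test, and of the round spermatid list 21 of 27. Acrv1 at day 19 had 7.12 and 6.66 in LuRKO testes, against 8.51 and 8.83 in wild type, a difference of -1.78 that became -3.92 at day 27. Oxct2a at day 19 lay between 6.19 and 6.24 on all 4 arrays, below the threshold, so its difference was first seen at day 27.

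Prm1 turned direction. At day 19 it had 8.01 and 7.72 in LuRKO testes, against 6.04 and 6.52 in wild type, a difference of 1.59 (SE 0.17), while at day 27 it had -5.62. Between the ages the difference changed by -7.21 (SE 0.27, limma adjusted p = 1.7e-18), a size that also rests on wild-type values near the top of the scale. It was already above background in LuRKO testes at day 3, with 8.96 and 8.79, against 7.55 and 7.52 in wild type. What this early signal comes from was not tested.

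Among Leydig and Sertoli cell genes some differences were already called at day 19. Cyp17a1 differed by -3.74 at day 19 and -4.23 at day 27, Insl3 by -3.55 and -2.89, and Rhox5 by -3.50 and -3.33. The change between ages was not called for any of them (limma adjusted p = 0.68, 0.52 and 0.88). For Rhox5 that change was 0.17 (SE 0.74), which leaves room for a change of either sign. The common spread takes in vehicle A, which stood far from vehicle B in Insl3 and Rhox5 and widened their SEs. The lack of a call for these genes therefore says little. The androgen-responsive list as a whole was lower in 8 of 9 cases at day 19, against 11.2% of all genes, and 3 of its members were higher in the test between ages. Fshr had differences of 0.38 at day 19 and 1.92 at day 27, a change of 1.54 (SE 0.21). Dazl changed by 1.60 (SE 0.25) and Wnt5a by 1.37 (SE 0.34) in the same way. Macrophage genes were lower in 13 of 20 cases at day 19.

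**Figure D4:**
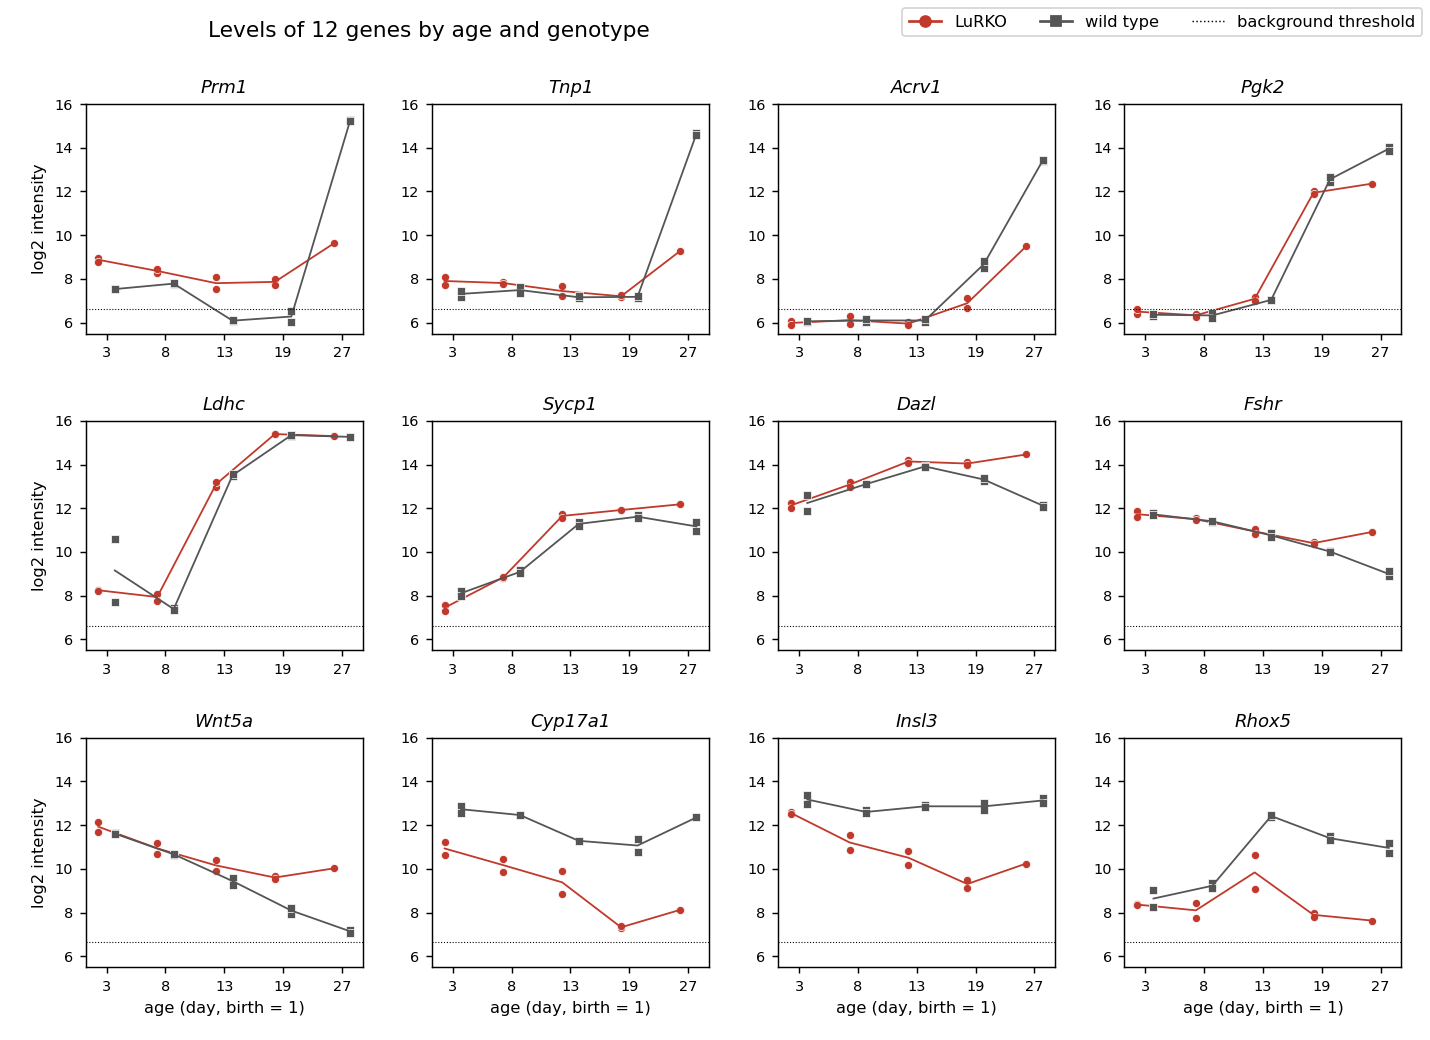
Each panel shows log2 intensity of a gene on every LuRKO (red circles) and wild-type array (grey squares) from day 3 to day 27, with lines through group means and the background threshold of 6.63 dotted. Prm1 and Tnp1 reach over 14 in wild type at day 27 and stay under 10 in the LuRKO testis, Ldhc differs by 0.04 at day 27, and Fshr, Dazl and Wnt5a lie above wild type in the LuRKO testis at that age.

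The same genes were read in LuRKO testes 48 h after testosterone against vehicle. The means of this comparison share no array with those of day 27, but its arrays entered the common spread, the filter and the choice of probe. The treated testes were taken 48 h and the vehicle testes 24 h after injection, so age and treatment cannot be told apart. The age label of vehicle A also differs from that of vehicle B. Of the 700 genes with a decrease of 4-fold or more, 368 were higher at 48 h (52.6%), against 10.7% of all genes, and 8 were lower. Without vehicle A the number was 346, and without vehicle B 294. Of the 1662 with an increase of 2-fold or more, 608 were lower at 48 h (36.6%), against 10.5% of all genes. That number was 532 without vehicle A and 194 without vehicle B. Against untreated day 19 LuRKO testes in place of vehicle, the numbers were 389 and 916.

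Of 27 round spermatid genes 21 were higher at 48 h (23 without vehicle A, 19 without vehicle B), and none was lower. Against untreated day 19 LuRKO testes 20 were higher and 1 was lower. Acrv1 had 8.96 and 9.81 at 48 h, against 6.34 and 6.09 with vehicle (3.17, SE 0.23, limma adjusted p = 1.8e-10). These levels were still below the 13.38 and 13.43 of wild type at day 27. Of 27 elongating spermatid genes 17 were higher, with a median of 0.65. Prm1, Cabs1 and Oxct2a were not called, at 0.21 (SE 0.17), 0.33 (SE 0.18) and 0.27 (SE 0.14). Tnp1 was called at 0.65 (SE 0.20), with 7.04 and 8.11 at 48 h, against 6.88 and 6.96 with vehicle, and without vehicle A it had a similar 0.61 (SE 0.25) that was not called. Rhox5 had 11.79 and 11.71 at 48 h, against 10.92 and 8.15 with vehicle, and differed by 2.21 (SE 0.47), or 3.60 (SE 0.36) without vehicle A.

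**Figure D5:**
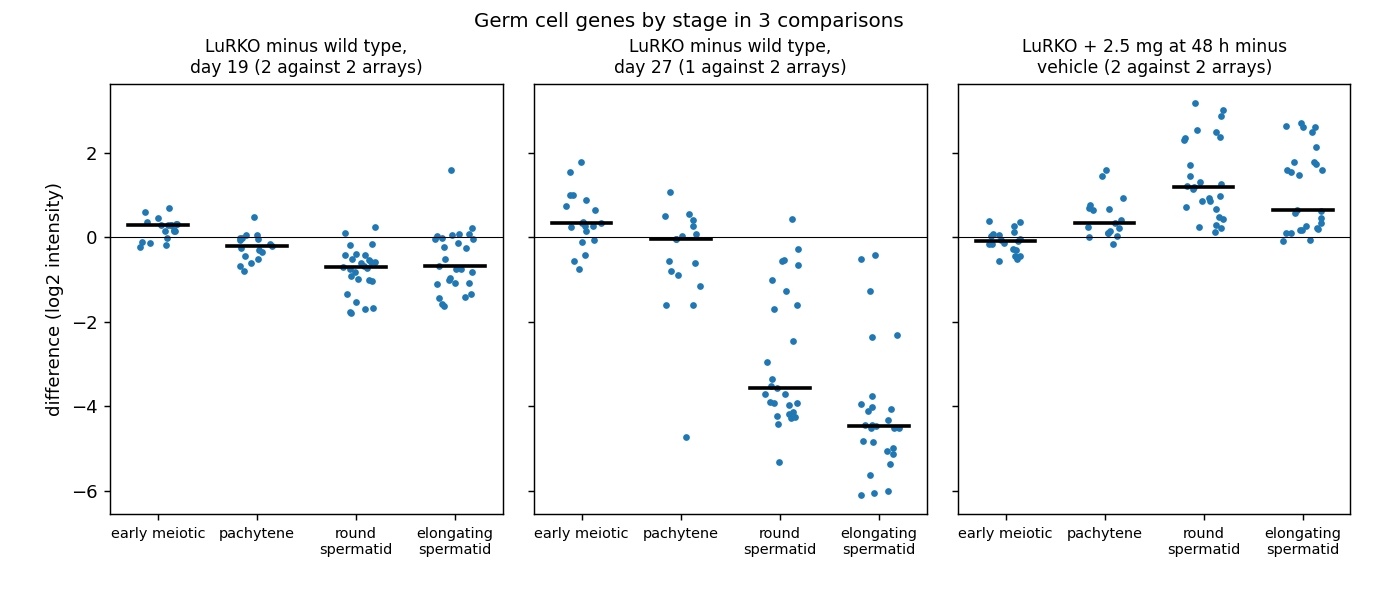
Points are genes of 4 germ cell lists and bars are medians, in the genotype comparisons of day 19 and day 27 and in LuRKO testes 48 h after 2.5 mg of testosterone propionate against vehicle (log2 differences). Round spermatid genes have medians of -0.70, -3.56 and 1.20, and elongating spermatid genes of -0.67, -4.46 and 0.65.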

How the data were processed

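Whole-testis RNA (LuRKO and wild type) was hybridised to 38 single-colour Illumina bead arrays and processed with BeadStudio, per the submitters' processing notes. The deposited values are linear probe intensities that the authors had made alike between arrays, as their nearly equal sorted values show, and how they did so is not recorded in the labels. A table with 76 unmatched columns was left out, since none of its names can be tied to a sample.

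Intensities were corrected with normexp (offset 50) and put on the log2 scale in limma 3.58.1 under R 4.3.3. Above background meant over 103, set from the mode of 76.2 and the spread below it at a one-sided 0.01. This threshold was taken on the log2 scale after a linear-scale one (93.2) had been run and its counts seen, and the linear one is kept as an alternative. Of 45281 probes 34885 had 1 symbol, 18 several and 10378 none listed. The 25700 probes above background on at least 2 arrays gave 15131 genes, each represented by its probe with the highest mean. A fold is written as at least N-fold where a gene was not above background in 1 group, taking the dim side on each array as its signal or the threshold, whichever was greater.

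The lmFit model had 1 mean for each of 20 groups over all 38 arrays, and eBayes moderated the spread (18 residual degrees of freedom, 10.4 from the prior). The design also gave the day 19 contrast, the difference between ages and 48 h against vehicle. The 29 gene lists (599 genes, 598 matched to a current symbol and 499 tested) and the comparison were chosen with earlier results of these data known, and lists have counts and medians but no test. Named genes were the 10 largest changes each way, up to 5 called members and the member nearest 0 of each list, 6 genes with the smallest p between ages, and a panel of testis genes. Catsper2, Sall4, Lin28a, Lama2, Col4a5, Mrc1, Ptprb and Csrp1 were added after their values were seen. Id4, Ret, Lhx1, Gfra1, Etv5, Bcl6b, Nanos3, Cdyl, Bmp6, Cyp2e1 and Plk1 were also named after that and are not traced under the alternatives. The design had named Prm2, which has no probe with a symbol, Sycp3, whose probe was not kept, and proteins, which are not used here. The receptor genes of luteinizing hormone and androgen are not analysed here. Of 4 motifs searched on both strands, TGANNTCA was chosen after the promoters had been read. The fit was run on simulated arrays with known changes, and the number of arrays limits the precision. Every simulated array was given the model's own spread, so this cannot test whether the LuRKO array of day 27 varies like the others. Replicate letters did not pair the samples: over 153 pairs of groups the A minus B deviations correlated between -0.26 and 0.25. Alternatives were the background correction, scaling, arrays in the fit, probe filters, mean of probes, a replicate block, another control group and leaving out arrays.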

Additional observations from a re-analysis of the deposited data

Results flagged for a closer look

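The genotype difference at day 27 differed from that at day 19 in 5284 genes by the interaction test in limma, of which 3285 were higher and 1999 lower. The test rests on 1 LuRKO array at day 27. The genes with the smallest p-values for this difference were Cstl1 (-6.00), 1700016H13Rik (-5.47), Prss55 (-5.37), Trp53tg5 (-5.29), Iqcf1 (-5.24) and 1700027F06Rik (-5.21). Each was between 6.01 and 6.75, around the background threshold of 6.63, in both genotypes at day 19 and over 11 on both wild-type arrays at day 27. Their day 19 differences lay between -0.13 for Iqcf1 and 0.24 for 1700016H13Rik.

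Genes of the panel with called differences of opposite sign at the 2 ages were Prm1 and Hsd3b1. Prm1 changed by -7.21 between the ages. Hsd3b1 had 8.00 in the LuRKO testis at day 27, against 7.09 and 7.31 in wild type, and 7.21 and 6.68 in LuRKO testes at day 19, against 7.66 and 7.57 in wild type, a change of 1.47 (SE 0.29, limma adjusted p = 0.00021). Over all tested genes, 141 were called at both ages with opposite signs, 85 of them higher at day 27 and 56 lower. Members of the lists made up 9 of these. Besides the 2 above they were Calr3, which changed by -5.20 between the ages, Col4a5 (1.54), Lama2 (1.35), Ptprb (1.23), Mrc1 (1.17), Serpina5 (1.13) and Csrp1 (0.82), and Kcnab1, outside the lists, changed by 5.54. At day 27 Csrp1 and Mrc1 were not called without wild-type array B, Serpina5 without A, and Kcnab1 without either. The causes were not tested.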

How the results depend on the processing

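The day 27 count of 8345 stayed within 1.5 times under every alternative run. It was 7573 and 7631 without wild-type array A or B. The threshold from the linear scale gave 5204 higher and 3179 lower of 16371 genes, and a minimum of 8 (log2) in a day 27 group, added after the data were seen, gave 4299 and 2546 of 9276. With arrays scaled to 1 median the share of calls that were higher was 59.5%, against 62.1%, and the median over genes 0.10, against 0.14. The replicate block gave 5167 higher and 3146 lower and changed no call of a named gene traced under the alternatives. The day 19 count of 3511 lay between 1669 and 2653 when 1 array was left out (1669 without wild-type B, 2253 without wild-type A, 2282 without LuRKO A). The 48 h count of 3201 lay between 1246 and 2785 (1246 without vehicle B, 1656 and 1710 without treated B and A), and was 4845 with untreated day 19 LuRKO testes as control. Fewer arrays enter those fits. Insig1, which restrains cholesterol synthesis, had 0.96 on the probe used and -0.34 with the mean of its probes. Acta2, a smooth muscle actin, was called at 0.33 (limma adjusted p = 0.046) and not called under 8 of the settings run (limma adjusted p up to 0.33). Of 3982 called genes with several probes, 334 had another probe called in the opposite direction. Without replication of the LuRKO array, no alternative here tests that array.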

Other observations

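Genes of the X chromosome, which is silenced in male meiosis, had a median difference of 0.45 at day 27 over 568 genes, with 51.8% higher and 16.7% lower in the LuRKO testis. The autosomes had 0.13 over 14524 genes, with 33.6% higher, and the 19 autosomes taken singly ranged from 26.5% to 37.5% higher. Among genes above background in wild type at day 3, the median was 0.79 over 424 X-linked genes, against 0.27 over 11209 autosomal ones, and single autosomes ranged from 0.16 to 0.39. At day 19, 24.6% of X-linked genes were higher, and single autosomes ranged from 9.42% to 15.1%. These are descriptions over genes of the same arrays, with no test.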
